A study of Mus musculus with 6 samples.

Results

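De novo fatty acid synthesis is the cytosolic route by which cells build saturated fatty acids from acetyl-CoA. Citrate leaves the mitochondrion and is split to acetyl-CoA, acetyl-CoA is carboxylated to malonyl-CoA, and fatty acid synthase joins these units into palmitate with NADPH as the reductant, after which elongases lengthen the chain. The route is most active in liver, adipose tissue and lactating mammary gland, whereas the heart mainly oxidizes fatty acids and uses malonyl-CoA chiefly to restrain their entry into mitochondria. Here 10 genes of the route, from the citrate carrier to the elongases, were followed in whole hearts, with the NADPH-producing enzyme Me1 and the lipogenic protein Thrsp included.

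Hearts were taken from 3 WT mice and 3 TG-PKR1 mice. All 6 were male, 12 weeks old and on a C57BL6/J background. TG-PKR1 mice overexpress PKR1, a G protein-coupled receptor for prokineticin-2, under the cardiomyocyte-specific alpha myosin heavy chain promoter, so the transgene is driven in cardiomyocytes while the RNA came from all cells of the heart. Total RNA of each heart was hybridized to 1 single-colour Agilent array, and the question was which transcripts differ between the genotypes.

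The members were found by the gene name given for each probe. The 41174 non-control probes carried 27597 distinct names after matching to RefSeq, and 21 of the probes belonged to the 10 genes. Me1 is listed under its older symbol Mod1, and its 2 probes were matched through RefSeq. Each member probe had 1 spot per array, and no member spot was saturated. Values are normalized log2 signals, a scale on which 1 unit is a doubling, and differences between genotypes were taken within a probe. The test (limma) covered the 20000 probes with the highest median signal, which included 15 member probes and at least 1 for each gene. The other 6 member probes, 3 of Acaca, 2 of Acss2 and 1 of Acly, had too low a median signal to be tested and differed by -0.19 to 0.041 log2 units between groups. They were well above background on 0 to 5 of 6 arrays, the 5 being those of 1 Acaca probe. Where a gene has 2 tested probes, they are numbered here by their mean signal.

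The number of arrays limited the precision of every value. Between 19650 and 23571 probes were well above background in WT hearts and between 21091 and 24923 in TG-PKR1 hearts. Of the 6 arrays, 3 had been read in an extended range (WT heart 1, TG-PKR1 hearts 2 and 3) and the others in a single scan, and WT heart 2 and TG-PKR1 heart 1 shared a slide. The Prokr1 probe, which measures the gene encoding PKR1, was well above background on 0 of 6 arrays and gave no check of the genotype. Nothing in the labels ties hearts to separate litters, so p-values measure the spread between these animals.

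Fasn, which assembles palmitate, and Elovl6, which lengthens it, fell in TG-PKR1 hearts. The signals of the first Fasn probe and of the Elovl6 probe were 6.71-fold and 7.26-fold lower, and both passed the test. Neither passed with scan mode as a block, with 75th percentile scaling of the median signal, with all non-control probes, with the filter to probes above background, in the deposited table, with loess over the median profile itself, or without any 1 heart other than WT heart 2 (limma adjusted p from 0.0694 to 0.746), and Fasn also did not after normexp with quantile normalization (0.0611). Slc25a1, Acaca and Thrsp had differences of -1.69, -1.64 and -1.58 log2 units, and Acly of -1.03, without passing it. Acacb, Elovl5, Acss2 and Me1 differed by 0.57 log2 units or less on every tested probe. The median over the 10 genes was -1.31 log2 units, beside a median of 0.030 over all 20000 probes.

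By limma with Benjamini-Hochberg adjustment over the 20000 probes, 2 of 15 member probes were called lower and 0 higher, where 0.095% of all probes were called lower. A lower value at an unadjusted p under 0.05 was found for 9 of the 15, against 1.66% of all probes, and a higher one for 0, against 0.715%. By Significance Analysis of Microarrays (SAM) at an estimated false discovery rate of 0, 5 of 15 were lower, against 0.271% of all probes. SAM was run on these data only as reported, with no block, other processing or heart left out. Every TG-PKR1 heart lay below every WT heart for 9 of 15 member probes, against 2.73% of all probes. Single probes were also compared by a two-sided exact permutation test, whose smallest p with 3 hearts against 3 is 0.1. In whole hearts, fewer cells of a type and less RNA per cell cannot be told apart.

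**Figure D1:**
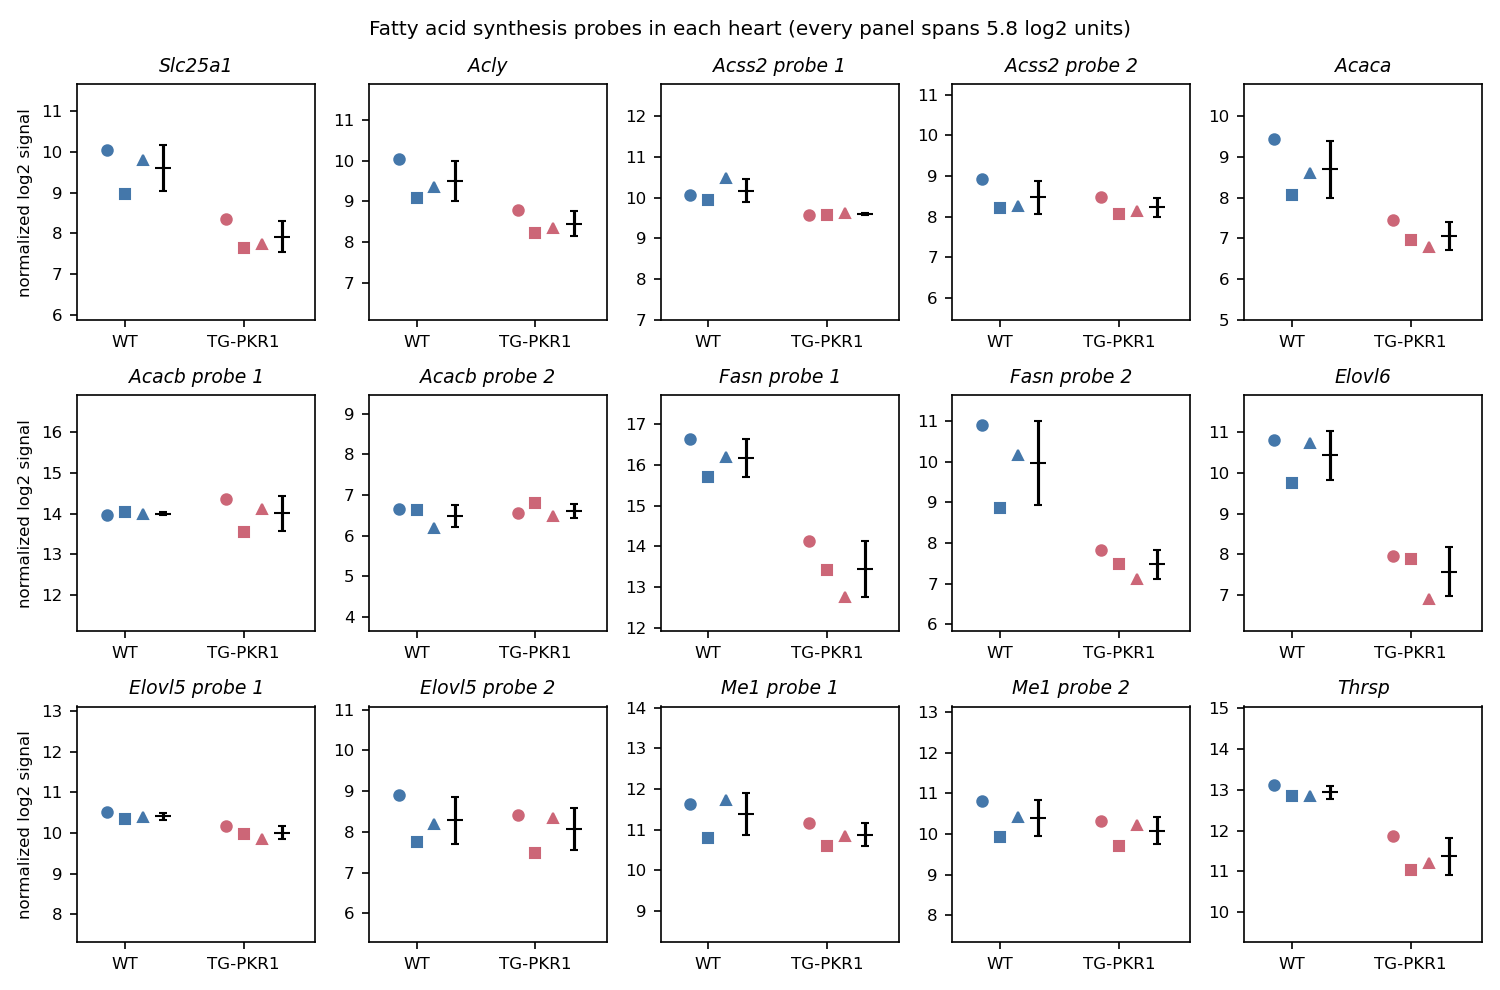
Normalized log2 signal of the 15 tested probes in each heart (circles, squares and triangles are hearts 1, 2 and 3 of each group; horizontal ticks with bars are mean ± SD, n = 3). The groups do not overlap for 9 probes, among them both Fasn probes and Elovl6, and they overlap for both probes of Acacb and of Me1.

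Slc25a1 encodes the mitochondrial citrate carrier, which exports the citrate used for cytosolic acetyl-CoA. Its probe (A_51_P350922, chr16:17839073-17839132 of mm8) read 10.05, 8.96 and 9.81 in WT hearts 1, 2 and 3, and 8.36, 7.65 and 7.74 in TG-PKR1 hearts 1, 2 and 3. All TG-PKR1 hearts were below all WT hearts, and WT heart 2 was the lowest of its group. The means were 9.61 ± 0.57 and 7.92 ± 0.38 (SD, n = 3 each). The difference was -1.69 log2 units (SE 0.30, limma adjusted p = 0.184), and SAM called the probe lower.

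Acly encodes ATP citrate lyase, which cleaves cytosolic citrate to acetyl-CoA. Its tested probe (A_51_P261718, chr11:100293293-100293351 of mm8) gave 10.03, 9.07 and 9.37 in the WT hearts and 8.80, 8.21 and 8.36 in the TG-PKR1 hearts. The groups did not overlap, but the gap between the lowest WT heart and the highest TG-PKR1 heart was small beside the spread of the WT hearts (SD 0.49, n = 3). The difference was -1.03 log2 units (SE 0.27, limma adjusted p = 0.783), and neither limma nor SAM called it.

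Acss2 encodes the cytosolic acetyl-CoA synthetase, which makes acetyl-CoA from acetate without citrate. Its first probe (A_51_P488399) read 10.08, 9.94 and 10.48 in WT hearts and 9.59, 9.58 and 9.63 in TG-PKR1 hearts. The TG-PKR1 hearts were nearly equal on this probe (SD 0.025, n = 3) and all below the WT hearts. The difference was -0.57 log2 units (SE 0.17), with a limma adjusted p of 1. The second probe of Acss2 (A_52_P566718) differed by -0.25 (SE 0.23) and its groups overlapped. Without WT heart 1 this second probe differed by -0.015. The log2 ratio of Acly to the first Acss2 probe differed by -0.47 between genotypes, with overlapping hearts (exact permutation test, two-sided p = 0.3).

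Acetyl-CoA carboxylase, the enzyme that makes malonyl-CoA, has 2 isoforms encoded by separate genes. Acaca encodes the cytosolic isoform that feeds fatty acid synthase, and Acacb encodes the isoform at the mitochondrial surface, abundant in heart and muscle, whose malonyl-CoA inhibits carnitine palmitoyltransferase. The tested Acaca probe (A_52_P318040, chr11:84217052-84217111 of mm8) read 9.44, 8.05 and 8.60 in WT hearts and 7.44, 6.94 and 6.79 in TG-PKR1 hearts. All TG-PKR1 hearts lay below all WT hearts, and WT heart 1 was the highest of its group. The difference was -1.64 log2 units (SE 0.34, limma adjusted p = 0.317), a WT signal 3.11-fold that of TG-PKR1 (95% interval 1.83 to 5.29). SAM did not call the probe. Across 19 other settings its difference ranged from -2.21, with the processed signal, to -0.61, between the hearts of the shared slide. Background was not subtracted and the TG-PKR1 signals were low, so the fold is not exact. Of the 3 other Acaca probes, 1 (A_52_P595124) was well above background on 5 of 6 arrays and differed by -0.041 (SE 0.11). Its WT mean of 6.37 lay close to those of the other 2 (6.11 and 6.06), which were well above background on 1 and 0 arrays. With so low a signal, this probe cannot show whether the Acaca probes disagreed.

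The first Acacb probe (A_51_P239236, chr5:114511625-114511685 of mm8) read 13.97, 14.05 and 13.98 in WT hearts. In TG-PKR1 hearts 1, 2 and 3 it read 14.36, 13.54 and 14.12. The WT hearts lay within the range of the TG-PKR1 hearts, and the difference was 0.0068 log2 units (95% interval -0.48 to 0.50). The second Acacb probe (A_52_P340167) was well above background on 5 of 6 arrays and differed by 0.13 (SE 0.18). Its means of 6.49 in WT and 6.61 in TG-PKR1 hearts were nearly as low as those of Acaca probe A_52_P595124. With so low a signal, it cannot show whether Acacb differed. The difference between the isoforms was compared directly, as the ratio of the Acaca signal to the first Acacb signal within each array. Of 4 such ratios between members, this log2 ratio differed by -1.64 between genotypes, and the 3 TG-PKR1 hearts lay below the 3 WT hearts without overlap (exact permutation test, two-sided p = 0.1, the smallest possible).

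Fasn encodes fatty acid synthase, the multifunctional enzyme that assembles palmitate. Its first probe (A_51_P321126, chr11:120623236-120623295 of mm8) read 16.63, 15.70 and 16.20 in WT hearts and 14.14, 13.40 and 12.76 in TG-PKR1 hearts. The highest TG-PKR1 heart was more than 1 log2 unit below the lowest WT heart. The means were 16.18 ± 0.46 and 13.43 ± 0.69 (SD, n = 3 each). The difference was -2.75 log2 units (SE 0.36, limma adjusted p = 0.0445), a WT signal 6.71-fold that of TG-PKR1 (95% interval 3.82 to 11.8).

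The second Fasn probe (A_52_P100252, chr11:120622442-120622501 of mm8) read 10.89, 8.86 and 10.17 in WT hearts and 7.83, 7.48 and 7.12 in TG-PKR1 hearts. The order of the hearts was the same on both Fasn probes. The spread of the WT hearts was wider here (SD 1.03, n = 3), with WT heart 2 closest to the TG-PKR1 hearts. The difference was -2.49 log2 units (SE 0.45), the limma adjusted p was 0.184, and SAM called both Fasn probes lower. Across 19 other settings the difference of the second probe ranged from -3.05 to -1.03.

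Elovl6 encodes the elongase that adds the next carbons to palmitate on the way to stearate. Its probe (A_51_P463440, chr3:129630352-129630411 of mm8) read 10.82, 9.74 and 10.74 in WT hearts and 7.95, 7.88 and 6.89 in TG-PKR1 hearts. The groups were well apart, and WT heart 2 and TG-PKR1 heart 3 were each the lowest of their group. The means were 10.43 ± 0.60 and 7.57 ± 0.59 (SD, n = 3 each). The difference was -2.86 log2 units (SE 0.36, limma adjusted p = 0.0386), the most negative of the 15 member probes, and the WT signal was 7.26-fold that of TG-PKR1 (95% interval 4.11 to 12.8).

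Elovl5, an elongase that acts mainly on polyunsaturated fatty acids, had smaller differences. Its first probe (A_51_P505493) read 10.51, 10.33 and 10.40 in WT hearts and 10.18, 9.99 and 9.86 in TG-PKR1 hearts. These groups did not overlap, and the difference was -0.41 log2 units (SE 0.15) with a limma adjusted p of 1. The second Elovl5 probe (A_52_P676944) differed by -0.21 (SE 0.34) with overlapping groups. The log2 ratio of Elovl6 to the first Elovl5 probe differed by -2.45 between genotypes without overlap of the hearts (exact permutation test, two-sided p = 0.1).

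Me1 encodes the cytosolic malic enzyme, one source of the NADPH that fatty acid synthase consumes. Its first probe (A_51_P266861) read 11.63, 10.78 and 11.73 in WT hearts and 11.17, 10.60 and 10.85 in TG-PKR1 hearts. WT heart 2 lay among the TG-PKR1 hearts, so the groups overlapped. The difference was -0.51 log2 units (SE 0.27) on this probe and -0.30 (SE 0.26) on the second (A_51_P186601), with limma adjusted p-values of 1. Single hearts moved both values: the first Me1 probe differed by -0.81 without WT heart 2. The second differed by -0.090 without WT heart 1 and by -0.12 without TG-PKR1 heart 2. The log2 ratio of Fasn to Me1 (first probe of each) differed by -2.24 without overlap (exact permutation test, two-sided p = 0.1).

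Thrsp, also called Spot 14, is a nuclear and cytosolic protein of lipogenic tissues that is induced together with the enzymes of the route. Its probe (A_51_P194099, chr7:97292244-97292303 of mm8) read 13.12, 12.85 and 12.84 in WT hearts and 11.87, 11.03 and 11.19 in TG-PKR1 hearts. The WT hearts were close together and nearly 1 log2 unit above the highest TG-PKR1 heart. The difference was -1.58 log2 units (SE 0.23, limma adjusted p = 0.0811), and SAM called the probe lower.

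**Figure D2:**
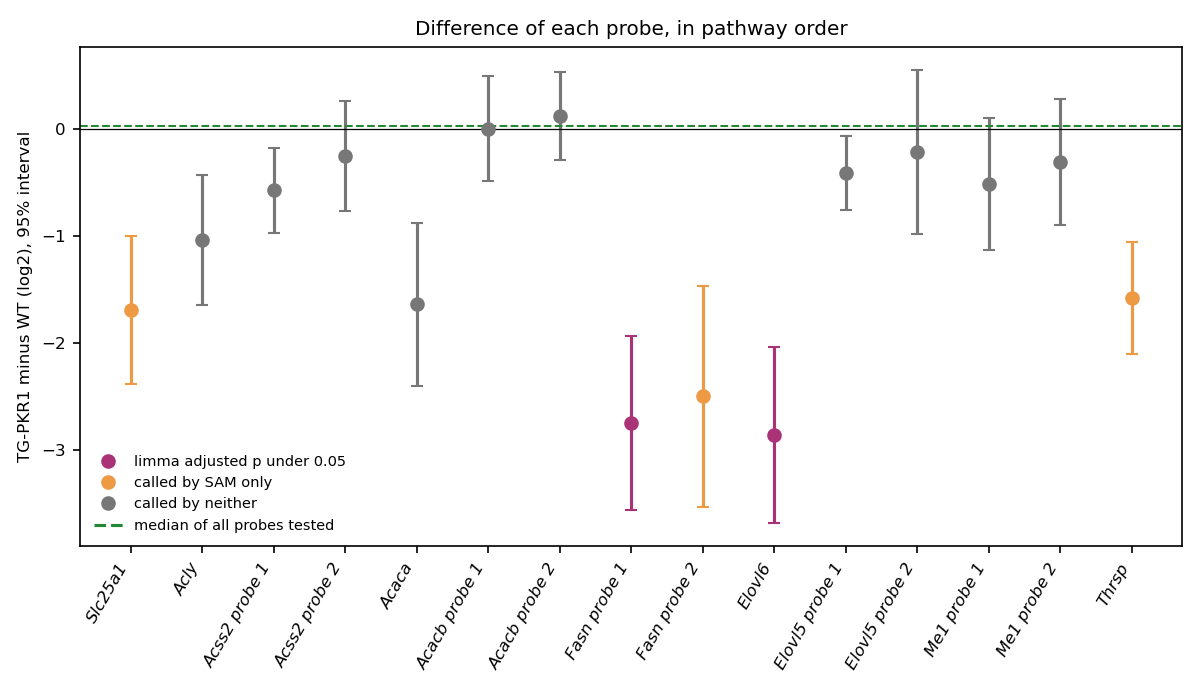
TG-PKR1 minus WT difference in log2 units with its 95% interval from limma for each tested probe, from citrate export on the left to elongation, then Me1 and Thrsp. The 2 probes called by limma, Fasn probe 1 at -2.75 and Elovl6 at -2.86, lie farthest below the dashed median of all probes at 0.030. Both Acacb intervals span 0, that of probe 2 at a low signal.

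The promoters of Fasn and Elovl6, the members called lower, are shown, with that of Thrsp, which had the next smallest adjusted p (0.0811) and was called by SAM. Each is the 250 bases before the RefSeq start site on GRCm38.p6, on the strand of the gene. Fasn lies at chr11:120824548-120824797 on the minus strand, Elovl6 at chr3:129532136-129532385 on the plus strand and Thrsp at chr7:97417551-97417800 on the minus strand. Capitals mark matches, on either strand, to CCAAT (the core bound by NF-Y), GGGCGG (the core bound by Sp1), CACGTG (an E-box), TCACNCCAC (a sterol regulatory element) or TATAAA.

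Fasn: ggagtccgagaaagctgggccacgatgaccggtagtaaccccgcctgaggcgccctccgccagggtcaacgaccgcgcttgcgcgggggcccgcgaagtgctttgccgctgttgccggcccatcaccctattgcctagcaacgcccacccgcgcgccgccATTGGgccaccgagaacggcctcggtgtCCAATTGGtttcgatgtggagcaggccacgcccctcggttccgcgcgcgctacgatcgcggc

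Elovl6: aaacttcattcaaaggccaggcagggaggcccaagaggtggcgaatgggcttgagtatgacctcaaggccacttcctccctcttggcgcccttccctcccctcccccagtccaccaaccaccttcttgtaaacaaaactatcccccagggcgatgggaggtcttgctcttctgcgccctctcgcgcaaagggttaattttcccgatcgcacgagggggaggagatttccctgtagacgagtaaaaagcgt

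Thrsp: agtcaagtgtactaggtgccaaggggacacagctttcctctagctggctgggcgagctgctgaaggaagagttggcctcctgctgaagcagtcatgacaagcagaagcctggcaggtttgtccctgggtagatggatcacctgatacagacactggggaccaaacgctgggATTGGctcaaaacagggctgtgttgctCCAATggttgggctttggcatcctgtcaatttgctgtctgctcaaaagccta

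Fasn held 3 CCAAT matches, of which 2 overlap on opposite strands, and Thrsp held 2. Elovl6 held none of the 5 motifs in this window. CCAAT was present in 7 of the 11 windows of the 10 member genes (Me1 has 2) and in 33.8% of 32851 RefSeq promoters of the same length. GGGCGG was present in 4 of 11 and in 32.7% of all promoters, CACGTG in 2 of 11 and 6.02%, TATAAA in 1 of 11 and 12.4%, and TCACNCCAC in 0 of 11 and 1.05%. The 4 windows with GGGCGG were those of Slc25a1, Acly, Acss2 and Me1, and the 2 with CACGTG were those of Slc25a1 and Elovl5. A match describes the letters of the window only.

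Hearts of 1 genotype kept a similar order over many of the members. WT heart 1 was the highest WT heart for 12 of 15 tested probes and WT heart 2 the lowest for 12. Among TG-PKR1 hearts, heart 1 was the highest for 13 of 15, and hearts 2 and 3 were the lowest for 9 and 6. The median over the 10 genes, each taken relative to its WT mean, was 0.37, -0.47 and -0.00080 in WT hearts 1, 2 and 3, and -0.88, -1.52 and -1.44 in TG-PKR1 hearts 1, 2 and 3. Within the extended-range arrays (1 WT and 2 TG-PKR1 hearts) the median difference over the members was -1.88, and within the single-scan arrays (2 WT hearts and 1 TG-PKR1 heart) it was -0.65. The 75th percentile of the signal was 11.4 to 14.1 times the local background on the extended-range arrays and 2.08 to 3.97 times on the single-scan arrays, and the part of scan mode in these values was examined only by the block given next.

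Fasn probe 1 differed by -3.55 within the extended-range arrays and by -1.81 within the single-scan arrays, Elovl6 by -3.43 and -2.29, and Thrsp by -2.01 and -0.98. For Slc25a1 the values were -2.35 and -1.03, and for Acaca -2.57 and -0.88. The TG-PKR1 value was the lower one for 15 of 15 member probes within the extended-range arrays (51% of all probes) and for 10 of 15 within the single-scan arrays (49.5%). Between the WT heart and the TG-PKR1 heart of the shared slide it was the lower one for 10 of 15 (49% of all probes), the median over the members was -0.44, and Fasn probe 1 differed by -1.57 and Elovl6 by -1.79. With scan mode as a block in limma, the differences were -2.68 for Fasn probe 1 (adjusted p = 0.239) and -2.86 for Elovl6 (adjusted p = 0.211), and 0 of 15 member probes were called, as were 0 of all 20000 probes. In that fit, without adjustment, 8 of 15 member probes had a lower value at p under 0.05 and 0 a higher one, where 1.5% of all probes had a lower value.

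Beyond the 10 genes, 61 genes that supply, extend, desaturate or regulate the route were examined by role, and 55 had a tested probe. By limma 0 of the 55 were called, 11 had a probe lower and 2 a probe higher at an unadjusted p under 0.05 (1.66% and 0.715% of all probes), and their median difference was -0.040 log2 units. These are counts of genes, which had 74 tested probes in all, whereas the shares are of probes. In 7 genes every TG-PKR1 heart lay below every WT heart (2.73% of all probes), in 2 every one lay above (2.68% of all probes), and in 46 the groups overlapped. SAM called 3 of them lower (Scd1, Elovl3 and Tkt), where it called 0.271% of all probes lower.

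Scd1, the desaturase that turns stearate and palmitate into monounsaturated fatty acids, read 14.46, 12.34 and 13.08 in WT hearts and 11.17, 10.37 and 10.34 in TG-PKR1 hearts. Its groups did not overlap, and it differed by -2.67 (SE 0.49, limma adjusted p = 0.184). Of the other 5 desaturases with a tested probe, Scd2 differed by -0.34 (SE 0.21) and Fads1 by 0.19 (SE 0.21). Elovl3, an elongase prominent in brown fat, differed by -2.05 (SE 0.35, limma adjusted p = 0.145) and was well above background on 3 WT arrays and 1 TG-PKR1 array. Its TG-PKR1 signals thus lay mostly near background, so the size of the difference, on which its SAM call also rests, is not exact. Elovl1, an elongase of saturated very long chains, differed by -0.057 (SE 0.15).

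Of 9 genes of NADPH supply, 0 were called by limma, and their median difference was -0.070 log2 units. Tkt, transketolase of the non-oxidative pentose phosphate pathway, read 14.05, 12.68 and 13.67 in WT hearts and 11.74, 11.14 and 11.28 in TG-PKR1 hearts. It differed by -2.08 (SE 0.33, limma adjusted p = 0.111), without overlap. G6pdx, the first enzyme of the oxidative branch, differed by -1.13 (SE 0.22, limma adjusted p = 0.28), and Me3, a mitochondrial malic enzyme, by 0.80 (SE 0.23) with a limma adjusted p of 1.

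The remaining roles had smaller differences. Of the enzymes that complete each elongation cycle, the dehydratase gene Hacd2 had the largest at -0.80 (SE 0.21, limma adjusted p = 0.853) and -0.48 (SE 0.14) on its 2 probes. The reductase gene Hsd17b12 differed by -0.44 (SE 0.19) and Hacd3 by 0.24 (SE 0.17). In citrate and acetyl-CoA supply, the pyruvate carboxylase gene Pcx differed by -0.72 (SE 0.28) with overlapping groups, and Pdha1, of the pyruvate dehydrogenase complex, by 0.59 (SE 0.24) and 0.26 (SE 0.22) on its 2 probes. Among genes of malonyl-CoA disposal and control of the carboxylase, the AMPK subunit genes Prkag2, Prkab1 and Prkaa2 differed by -0.24 (SE 0.18), 0.24 (SE 0.21) and 0.22 (SE 0.18). In mitochondrial fatty acid synthesis, a separate route, Mecr differed by -0.37 (SE 0.15) and Oxsm by -0.27 (SE 0.22) and -0.19 (SE 0.15) on its 2 probes.

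The transcription factors that drive the route were among the genes with small differences. Srebf1, which encodes SREBP-1, read 11.98, 12.11 and 11.92 in WT hearts and 11.22, 11.88 and 12.02 in TG-PKR1 hearts, and the groups overlapped (difference -0.30, SE 0.22). Mlxipl, which encodes the carbohydrate-responsive factor ChREBP, differed by -0.20 (SE 0.20) and -0.42 (SE 0.16) on its 2 probes. On the second, every TG-PKR1 heart lay below every WT heart (2.73% of all probes), with an unadjusted limma p of 0.027 that did not pass after adjustment. Insig1, which retains SREBP precursors in the endoplasmic reticulum, differed by -0.40 (SE 0.25). The liver X receptor gene Nr1h2 differed by 0.30 (SE 0.15), with every TG-PKR1 heart above every WT heart (2.68% of all probes). Regulators were measured as transcripts only, and the array carries no information on processing or activity of the proteins.

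**Figure D3:**
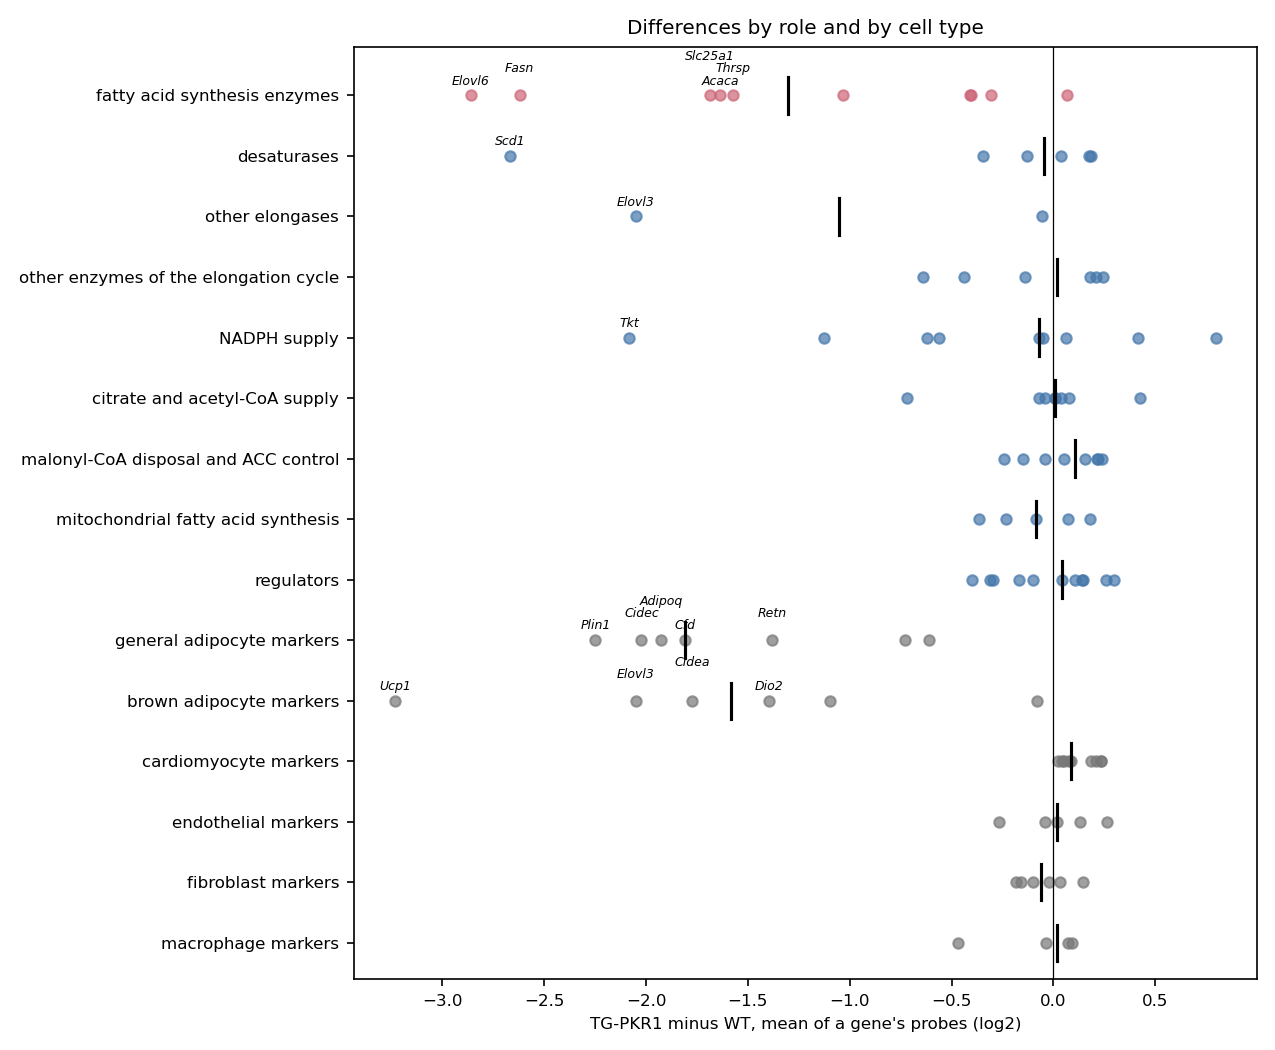
TG-PKR1 minus WT difference in log2 units for each gene (points, mean of its tested probes) by role, with the median of each row as a black bar and genes below -1.2 named. The fatty acid synthesis enzymes (median -1.31) and the general and brown adipocyte markers (medians -1.81 and -1.58) lie to the left, and cardiomyocyte markers (median 0.084) lie near 0.

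Adipocyte transcripts were lower in the same hearts. Of 8 general adipocyte markers, 7 had a tested probe, with 11 tested probes in all. Counts here are of genes, and the shares beside them are of probes. For each of the 7, averaged over its probes, the TG-PKR1 hearts all lay below the WT hearts (2.73% of all probes), and 3 genes were called lower by limma (0.095% of all probes). Adipoq (adiponectin) differed by -1.93 (SE 0.18, adjusted p = 0.0339), Plin1 (the lipid droplet coat protein perilipin) by -2.25 (SE 0.23, adjusted p = 0.0339) and Cidec (a lipid droplet protein) by -2.02 (SE 0.25, adjusted p = 0.0386). With scan mode as a block in limma their differences were -1.96, -2.28 and -2.04, and the adjusted p-values of 0.189, 0.189 and 0.211 no longer passed. These calls and that of Ucp1 given next were also lost with 75th percentile scaling of the median signal, with all non-control probes, with the filter to probes above background, in the deposited table, and without WT heart 1, WT heart 3, TG-PKR1 heart 1 or TG-PKR1 heart 3, where 0 of all probes were called lower. The median over the 7 was -1.81, and their summed linear signal (brightest probe per gene, arbitrary units, in which the genes' shares cannot be compared) ranged from 123633 to 185350 in WT hearts and from 69448 to 83427 in TG-PKR1 hearts. The brightest of these probes, that of Fabp4 (A_51_P336833), read 16.25 to 16.89 in WT hearts and 15.80 to 15.96 in TG-PKR1 hearts. It differed by -0.72 (SE 0.19), and the summed signal mainly follows this 1 probe. Lep, which encodes leptin, was near background (well above it on 2 of 6 arrays).

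Of 8 brown adipocyte markers, 6 had a tested probe, their median was -1.58, and their summed signal ranged from 92111 to 121315 in WT and from 58310 to 77151 in TG-PKR1 hearts. Without Cox8b, which heart muscle also expresses, it ranged from 38611 to 67739 in WT and from 9402 to 14734 in TG-PKR1 hearts. Ucp1, the uncoupling protein of brown fat, was called lower by limma (difference -3.23, SE 0.42, adjusted p = 0.0445), but not with scan mode as a block (adjusted p = 0.235), and Cox8b differed by -0.079 (SE 0.21). Cidea, a lipid droplet protein, differed by -1.77 (SE 0.25, limma adjusted p = 0.0603). Elovl3, 1 of the 6, was well above background on 1 TG-PKR1 array only, so its part in the median is not exact. Zic1 and Lhx8 lay near background, above it on 0 or 1 of 6 arrays per probe. The part of adipocyte transcripts in the members' differences was not tested.

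The 9 cardiomyocyte markers differed by 0.021 to 0.24 log2 units with overlapping groups, and the largest differences were those of Tnnt2, Actc1 and Myh6. Their summed signal ranged from 781087 to 1127060 in WT hearts and from 810630 to 1372400 in TG-PKR1 hearts. The Mybpc3 probe was saturated on 2 arrays, and without it the sums ranged from 632665 to 917113 and from 652566 to 1108420. The endothelial, fibroblast and macrophage lists had medians of 0.017, -0.060 and 0.020, and 0 of their 15 genes were called by limma or SAM, with 0 at an unadjusted p under 0.05. Their largest differences were -0.27 for Kdr, 0.26 for Pecam1, -0.19 for Col3a1 and -0.47 for Adgre1.

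**Figure D4:**
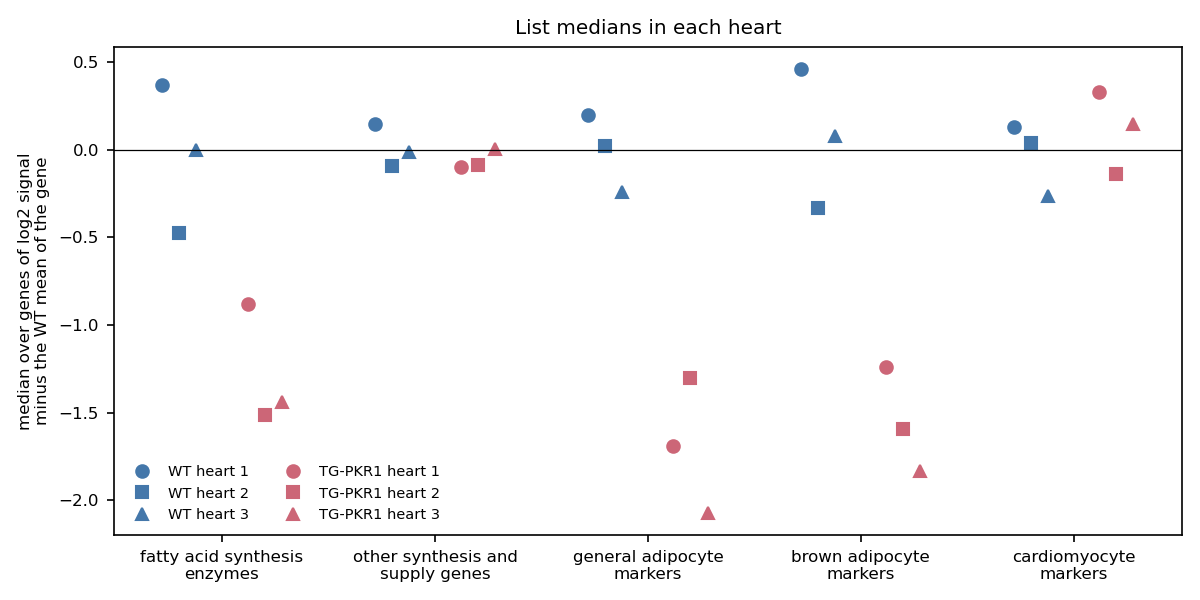
Median over each list of log2 signal minus the WT mean of the gene, in each heart (symbols as in the legend). For the members the TG-PKR1 hearts sit at -0.88, -1.52 and -1.44, below all WT hearts, and in these hearts the adipocyte markers also lie below all WT hearts.

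The members were also set against the general adipocyte markers within each array, as the log2 signal of the gene's first probe minus the median of the markers, both relative to their WT means. Relative to the markers, Elovl6 differed by -1.18 between genotypes with no overlap of the hearts (exact permutation test, two-sided p = 0.1). Fasn differed by -1.06 with overlapping hearts (exact permutation p = 0.2).

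For Slc25a1, Acaca and Thrsp the values relative to the marker median differed by -0.0059, 0.046 and 0.11 between genotypes, with overlapping hearts (exact permutation p = 0.9 for each). Acly differed by 0.65 (exact permutation p = 0.3). Acss2, Acacb and Elovl5 differed by 1.11, 1.69 and 1.28, with every TG-PKR1 heart above every WT heart (exact permutation p = 0.1 for each), and Me1 by 1.17 with overlapping hearts (exact permutation p = 0.2). These 10 comparisons share 1 marker median, and with 3 hearts against 3 none could reach a p below 0.1. That median was itself at -1.69, -1.30 and -2.07 in TG-PKR1 hearts 1, 2 and 3. A gene with little difference of its own, such as Acacb, thus rises relative to it by subtraction, which is no separate result on that gene.

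**Figure D5:**
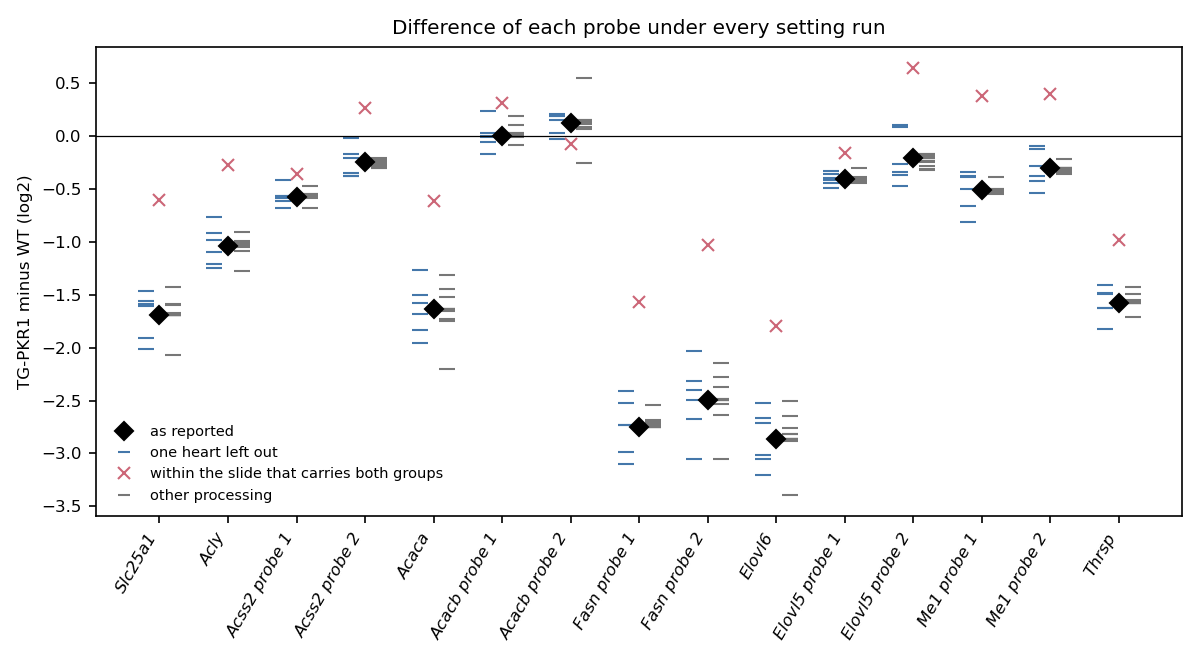
TG-PKR1 minus WT difference in log2 units of each tested probe as reported (diamonds), with 1 heart left out (blue ticks), under other processing (grey ticks) and between the hearts of the shared slide (crosses). Fasn, Elovl6, Thrsp, Slc25a1, Acaca and Acly stay below 0 throughout, and the crosses lie nearer to 0 than the diamonds for each of them.

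Across 19 other settings, which do not include the values within a scan mode given above, the differences of Fasn probe 1 ranged from -3.10 to -1.57, those of Elovl6 from -3.39 to -1.79 and those of Thrsp from -1.83 to -0.98. Among the 18 of these settings with a test, Elovl6 passed in 7, Fasn probe 1 in 6, and Fasn probe 2, Slc25a1 and Thrsp in 1 each. No setting called a probe of Acly, Acss2, Acaca, Acacb, Elovl5 or Me1. Leaving out any heart but WT heart 2 left 0 member probes called, where of all probes 8 were called lower without TG-PKR1 heart 2 and 0 without each of the others. Leaving out WT heart 2 gave 4 member probes of 19 probes called lower.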

How the data were processed

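RNA of 3 WT and 3 TG-PKR1 hearts was measured on single-colour (Cy3) Agilent mouse arrays, 1 per heart. The authors deposited spot intensity read with Agilent Feature Extraction and not normalized between arrays. A second file, which the authors deposited as log2 values after LOWESS, probe averaging and filtering, served as an alternative only.

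Control and outlier spots were removed from the log2 median signals. Background was not subtracted from them, so fold values of probes with low signal are not exact. Loess with span 0.3 and 4 iterations brought each array to the median profile, replicate spots were averaged, and 20000 probes entered the test by their median signal. The groups were compared with limma (version 3.58.1) under R (version 4.3.3), data tables were read with the package data.table (version 1.17.8), and p-values were adjusted by Benjamini-Hochberg across these 20000 probes with 0.05 as the threshold. SAM used the 20 possible assignments of the hearts and an estimated false discovery rate of 0. That rate rests on the median number of calls over the assignments, so single assignments could still give calls. Both tests were first tested on simulated data. Intervals are limma's 95% intervals, and probes of a gene were averaged before medians over genes.

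Probe coordinates were taken from the files (mm8), and no exon annotation of that build was used here. Gene names and promoters came from RefSeq (GRCm38.p6). Besides the members, the text names each pathway gene or marker called by limma, up to 3 per role or cell type with the largest differences, and Prokr1. It also names Srebf1, Cox8b, Mybpc3, Lep, Zic1, Lhx8 and Fabp4, which were chosen after their values were seen. The members and the gene lists were chosen with earlier results of these data known. Alternatives covered the signal, background correction, normalization, probe filter, test, scan mode and slide, and each heart left out. Marker calls with the block and sums without Cox8b or saturated Mybpc3 were added after seeing the data.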

Additional observations from a re-analysis of the deposited data

How the results depend on the processing

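The number of member probes called lower was 2 by limma as reported. It was 1 after normexp with quantile normalization, 5 by SAM, 3 with trend and robust settings of eBayes, 3 at an adjusted p under 0.1, and 0 with scaling to the 75th percentile alone, with all non-control probes tested, with a filter to probes above background on at least 3 arrays, in the deposited table, with a block for scan mode, and with loess over the median profile itself, an alternative chosen after seeing the data. Over the whole array 19 probes were called lower as reported, 17 after normexp with quantile normalization, 33 with quantile normalization alone and 31 with trend and robust settings. There were 2 with that loess and 0 in each of the other 5 settings that left 0 member probes. SAM called 54 of 19955 probes lower (0.271%). For an adjusted p under 0.1 no count over all probes is given, so those 3 cannot be set against one. Leaving out single hearts gave 0 to 4 calls. The 4 came without WT heart 2, and the 0 without WT heart 1, WT heart 3 or any of the TG-PKR1 hearts, each a fit with fewer samples. Of all probes, 8 were called lower without TG-PKR1 heart 2, 19 without WT heart 2 and 0 without each of the others. The median over the members moved from -1.31 to -0.50 with all non-control probes, which averages in the 6 probes with low signal. It was -1.88 within the extended-range arrays and -0.65 within the single-scan arrays, and -0.44 between the hearts of the shared slide. The median over the other pathway genes moved from -0.040 to -0.20 within the extended-range arrays. The median over the general adipocyte markers moved by less than the spread between hearts under every alternative run.

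Of 270 tested values of single member probes under an alternative, 234 kept their direction and side of the threshold, 23 no longer passed it, 3 passed only there and 10 changed sign. Of 15 untested values between the hearts of the shared slide, 10 kept their direction and 5 changed sign. Besides Acacb, whose changes follow, Elovl5 probe 2 changed sign without WT heart 1 (0.11) or TG-PKR1 heart 2 (0.089). Its range was -0.47 to 0.11 over the hearts left out. Between the hearts of the shared slide, again besides Acacb, the sign changed for Elovl5 probe 2 (0.64), Acss2 probe 2 (0.27) and Me1 (0.38 and 0.40). Acacb, whose differences lay close to 0, changed sign 9 times. Its first probe was -0.087 with the processed signal, -0.0035 with loess over the median profile itself and -0.17 to 0.24 over the hearts left out. Its second probe was -0.25 with 75th percentile scaling, -0.075 on the shared slide and -0.025 to 0.21 over the hearts left out. The cause of the sign changes was not tested. Signal over background limits the 6 member probes outside the 20000 (well above it on 0 to 5 arrays). No paired analysis was possible because no full number in the sample titles recurs between genotypes. The part before the point recurs for WT heart 2 and TG-PKR1 heart 1 only, which share a slide, and the digit after it, which the labels do not explain, repeats among the TG-PKR1 hearts and was not used.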
